A study of Mus musculus with 16 samples.

Results

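The genes of fatty acid uptake and oxidation were examined in the left atrium (LA) of old female mice. They are 35 genes of the 24972 in the deposited table, taken from the table by symbol, and they cover the path from the capillary wall to the last step of mitochondrial β-oxidation. Total RNA of the LA was sequenced in 16 libraries from C57BL6/J females aged 24 months, with 4 libraries in each of 4 groups. Ovx + AngII mice had been ovariectomized at 12 months of age and received angiotensin II (AngII) for the last 4 weeks, Ovx mice had the same surgery without AngII, AngII mice kept their ovaries and received AngII for 4 weeks, and control mice kept their ovaries and received none. AngII came from a pump implanted under the skin, and the methods of the study describe sham surgery with no vehicle pump, so the groups with and without AngII also differ by the presence of a pump. The labels do not say which mouse each library came from, so the p-values below measure the spread between these libraries.

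The heart takes most of its energy from fatty acids. Lipoprotein lipase frees them from triglycerides at the vessel wall, CD36 and a fatty acid-binding protein carry them into the cardiomyocyte, acyl-CoA synthetase activates them, and the carnitine shuttle brings long chains into mitochondria. There, each turn of β-oxidation uses a dehydrogenase, a hydratase, another dehydrogenase and a thiolase, with enzymes specialised by chain length, and passes electrons to the respiratory chain through the electron transfer flavoprotein. Many of these genes are textbook targets of the peroxisome proliferator-activated receptors (PPARs) and the oestrogen-related receptors, and cardiac stress is known to lower several of them in the ventricle.

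Values are normalised read counts, rescaled so that the libraries share 1 scale, because the table as deposited held them on 2 scales, with a difference of -0.17 (log2) for the Ovx and Ovx + AngII libraries minus the AngII and control libraries. All 35 genes passed the filter of a mean value of at least 10, which left 14251 genes to test. Fold changes are differences of log2(value + 1), tested two-sided with limma with adjustment over all 14251 genes, and a gene "passed" at an adjusted p of at most 0.05. Means are given ± SD over the 4 libraries of a group. Rescaled library totals were 18313100 to 20145100. The library labelled control replicate 4 stood apart. Its 7 macrophage markers summed to 36114, against at most 22178 elsewhere. In the table it lies under the heading of the AngII mice (5 columns, against 3 under the control heading), whereas its GEO title says control. Its mean correlation with the other libraries was 0.956 for AngII, 0.945 for control, 0.946 for Ovx + AngII and 0.940 for Ovx. Haemoglobin genes took 0.971% of its values, more than in any other library but AngII replicate 4 (1.46%). Its Nppa (516543) and its sum of smooth muscle and pericyte markers (8880) lay among the other controls. AngII libraries had at least 625765 and 11645. Its endothelial marker sum (32179) lay in the AngII range (31119 to 33715). Why this library stood apart was not tested. It was kept in the group of its title, and the results that rest on it are also given without it. Atrial cardiomyocyte markers, such as the atrial light chain Myl7, were present in every library, and 10 such genes summed to 1729440 to 2413710 per library.

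In control LA, a fatty acid carrier and a lipase had the highest levels of the 35 genes. Per kb of transcript, the level was highest for Fabp3, the heart fatty acid-binding protein (25300.4), followed by Lpl, lipoprotein lipase (12889). The mitochondrial trifunctional protein subunit Hadhb (6951) and the long-chain dehydrogenase Acadl (6481) came next, and their control libraries overlapped. Levels per kb were 4855 for the fatty acid translocase Cd36, 4481 for the medium-chain dehydrogenase Acadm and 3169 for Cpt1b, the muscle form of carnitine palmitoyltransferase 1. Cpt1a, the liver form, had 503. The lowest levels per kb were those of the lipase inhibitor Angptl4 (29.0), of Acad10 (41.3) and of Acot1 (42.3). The 35 genes together made up 1.13% to 1.34% of the values of control libraries.

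**Figure D1:**
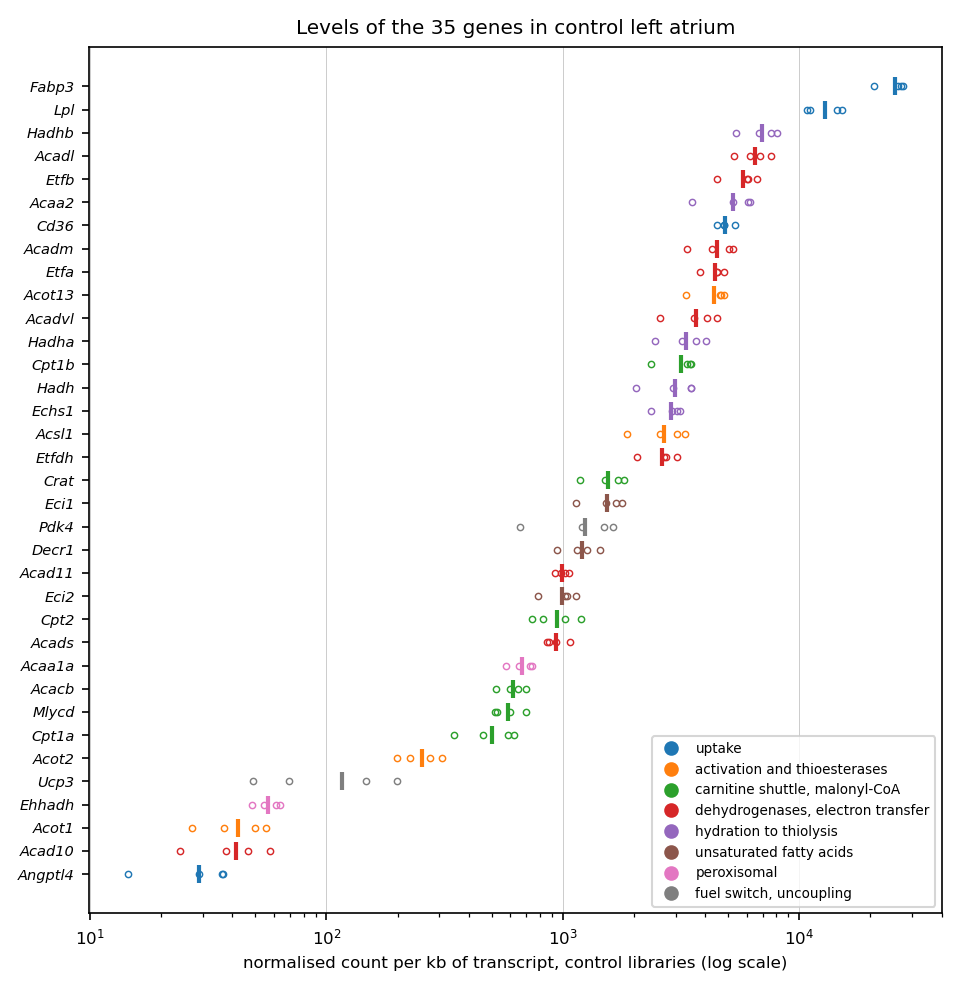
Normalised counts per kb of transcript of the 35 genes in control LA, on a log axis. Circles are the 4 control libraries, vertical marks their mean, and colours the step of the path; Fabp3 and Lpl lie highest and Angptl4 lowest.

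How the LA responded to AngII was asked in mice with ovaries, in ovariectomized mice, and in the average of both. Nearly all of the 35 genes had lower values with AngII. The log2 fold change was below 0 for 35 of 35 genes in AngII against control mice and for 34 of 35 in Ovx + AngII against Ovx mice, the exception being Cd36. Over all 14251 genes, 52.1% were below 0 in the first comparison and 51.3% in the second. In both at once, 36.1% of all genes and 34 of the 35 were below 0. The median of the 35 was -0.32 in AngII against control mice, where all genes had -0.011, and -0.27 in Ovx + AngII against Ovx mice, where all genes had -0.0067. Without AngII replicate 1, the median in AngII against control mice was -0.18. In bulk tissue, a lower share of cardiomyocytes and less RNA of these genes per cardiomyocyte cannot be told apart. Smooth muscle and pericyte markers (6 genes) summed to 11645 to 13276 in AngII and 8502 to 9720 in control libraries, fibroblast markers (8 genes) to 51516 to 68823 in AngII and 45434 to 51554 in control libraries, and the groups did not overlap for the first sum. Most of that sum was Rgs5, which had 5947 to 9585 in AngII and 6311 to 7176 in control libraries, with overlap, and did not pass there. Of the same 6 genes, Acta2 and Cnn1 passed there and were higher. In ovariectomized mice the smooth muscle sums were 12740.3 to 14145 with AngII and 7798 to 9088 without. The fibroblast sums there were 51734 to 64834 with AngII and 46363 to 54834 without. Of the 8 fibroblast markers, Col1a2 and Col1a1 alone passed in the average, and both were higher. The median of the 8 in the average was 0.047, and 3 of them were below 0. Brown fat also expresses many of the 35 genes. Its 6 markers summed to 6895 to 10405 in AngII and 8176 to 12425 in control libraries, and to 7282 to 9467 in Ovx + AngII and 9733 to 12038 in Ovx libraries. Nearly all of the sum was Cox7a1 and Cox8b, which heart muscle also expresses. Cox7a1 fell in Ovx + AngII against Ovx mice (-0.71) and in the average (-0.61), and Cidea had 0.39 in the average and did not pass. The defining marker Ucp1 was at 0 in 13 of the 16 libraries and had at most 19.4, and Elovl3 and Zic1 were below the filter. Endothelial markers (7 genes) summed to 31119 to 33715 in AngII and 25149 to 32179 in control libraries, and to 27642 to 34017 in Ovx + AngII and 26293 to 27546 in Ovx libraries. Of these, Pecam1, Cdh5 and Emcn rose in the average. The part of these cells in the result was not tested.

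Of single genes, 1 of 35 passed in AngII against control mice, Acadm, which fell; of all genes, 1.25% passed and were lower. At an unadjusted p under 0.05, 18 of the 35 were lower, and 2658 of all genes (18.7%) differed in either direction. In Ovx + AngII against Ovx mice, 4 of 35 fell, Acot1, Acot2, Mlycd and Cpt1a, where 4.28% of all genes passed and were lower. Averaged over both backgrounds, 16 of 35 fell and none rose, where 8.5% of all genes passed and were lower. Those 16 were Acsl1, Acot1, Acot2, Cpt1a, Mlycd, Acacb, Acadm, Acads, Etfa, Etfb, Echs1, Hadh, Acaa2, Eci1, Decr1 and Ucp3. A fall of at least 2-fold that passed was seen for 0 of 35 genes in AngII against control mice (0.218% of all genes), for Acot1 in Ovx + AngII against Ovx mice (1.03%), and for Acot1 and Ucp3 in the average (0.919%). With Ovx + AngII, 10 of 35 genes lay in every library below every Ovx library (10% of all genes): Acsl1, Acot1, Acot2, Acacb, Acadm, Etfb, Echs1, Hadh, Acaa2 and Eci1. In AngII against control mice this held for Mlycd alone (3.38% of all genes), and for no member in both comparisons (1.33%).

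Single libraries weighed on these counts. Without control replicate 4, 14 of 35 genes fell in AngII against control mice (5.06% of all genes), 10 in Ovx + AngII against Ovx mice (6.2%) and 24 in the average (12.2%). In the second of these, the fold changes stayed as they were and the shared estimate of the spread was smaller. In AngII against control mice, the count was 3 without AngII replicate 4, 2 without AngII replicate 2, 1 without Ovx + AngII replicate 2, and 0 without any 1 of the other 12 libraries; it was also 0 in a fit of the 8 libraries of these groups alone (limma), with 12 of 35 and 13.4% of all genes at an unadjusted p under 0.05. In Ovx + AngII against Ovx mice, it was 10 without AngII replicate 1 (5.12% of all genes passed and were lower), 2 without Ovx replicate 1, 2 or 3 (2.05% to 2.90%), 1 without Ovx + AngII replicate 3 (1.93%) and 15 in a fit of those 8 libraries (7.99%). In the average, 10 fell without control replicate 3 (6.98% of all genes) and 9 without Ovx + AngII replicate 3 (6.51%). Acot1, Acot2, Mlycd, Acadm, Etfb, Echs1, Hadh, Acaa2 and Ucp3 passed in the average under all 26 alternatives tried. AngII replicate 1 was the lowest of its group for 31 of the 35 genes, control replicate 4 for 27 and Ovx replicate 4 for 32. Ovx + AngII replicate 2 was the highest of its group for 26. The genes moved together from library to library, so the directions of the 35 are not separate observations.

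**Figure D2:**
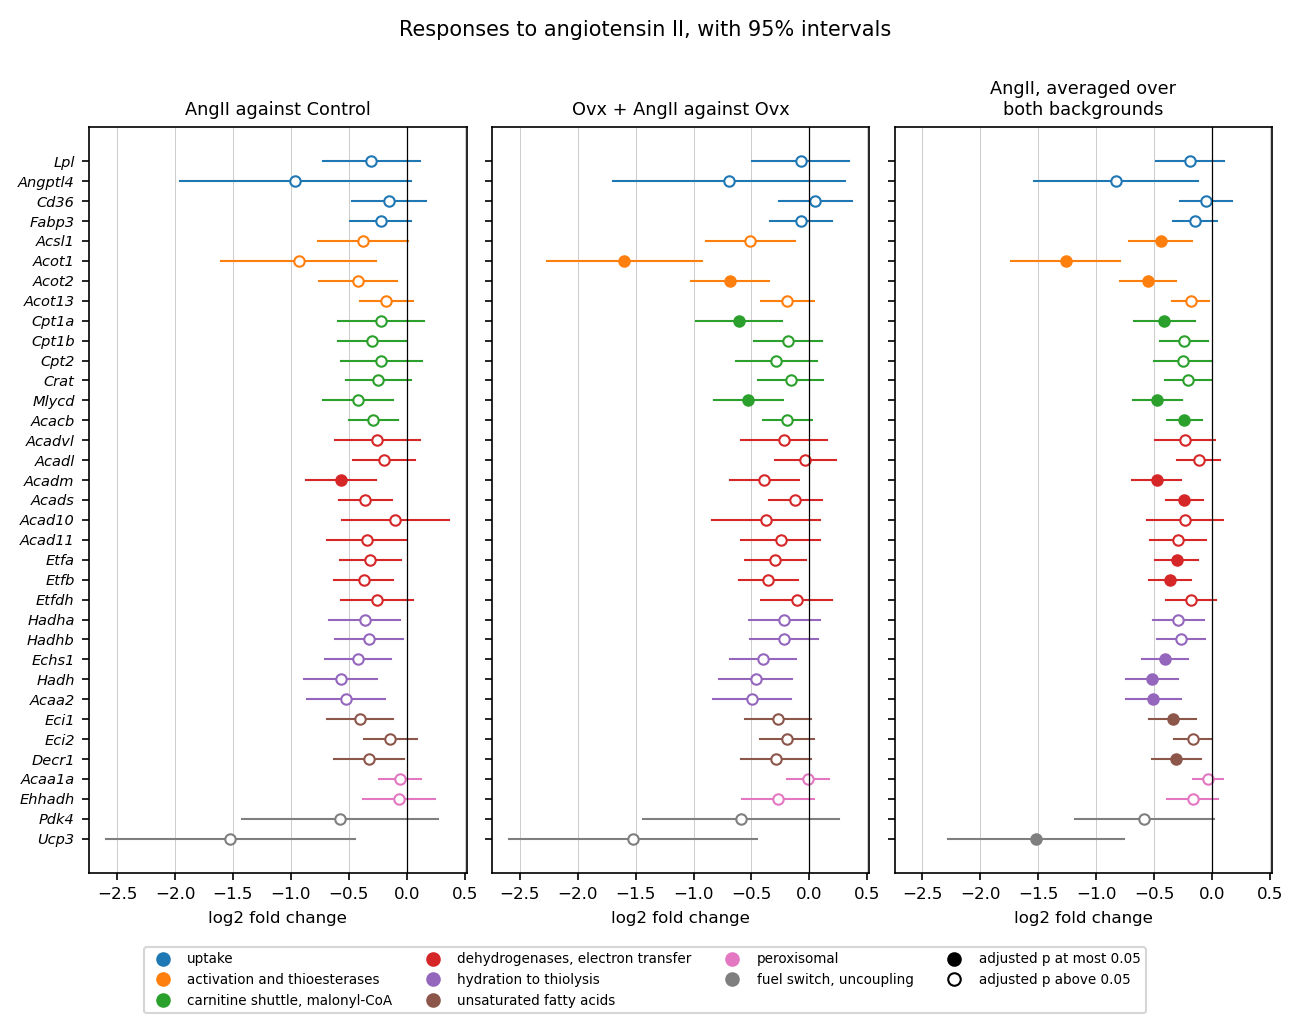
Log2 fold changes of the 35 genes in AngII against control mice, in Ovx + AngII against Ovx mice and averaged over both, with 95% intervals from limma. Colours mark the step of the path and filled circles an adjusted p of at most 0.05; nearly all points lie left of 0. Ucp3 lies farthest left in AngII against control mice and in the average, and Acot1 in Ovx + AngII against Ovx mice.

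The 4 members that free fatty acids and bring them into the cell, Lpl, Angptl4, Cd36 and Fabp3, did not pass in either comparison. Lpl had 28313, 35669.8, 51395 and 62557 normalised counts in AngII and 44409, 62679, 45725 and 59339.9 in control libraries, and 41710.4, 46900.4, 37308 and 38899 in Ovx + AngII and 46783, 39576, 43076 and 44005 in Ovx libraries. The groups overlapped, and the log2 fold changes were -0.30 ± 0.20 (SE, adjusted p = 0.438) and -0.076 ± 0.20 (SE, adjusted p = 0.858). Cd36 had 9665, 15917, 17574 and 17762 in AngII and 16266, 15229, 16328 and 18181 in control libraries. Only AngII replicate 1 was low, and the fold change of -0.15 became 0.051 without it. In ovariectomized mice Cd36 averaged 16323 ± 1035 with AngII and 15771 ± 1488 without (SD, n = 4), a difference of 0.052 with an interval of -0.26 to 0.37. Fabp3 averaged 17864 ± 2632 in AngII and 20822 ± 2599 in control mice, and 20199 ± 1920.3 in Ovx + AngII and 21273 ± 2399 in Ovx mice, with log2 fold changes of -0.22 and -0.072. Angptl4, the secreted inhibitor of lipoprotein lipase and a PPAR target, was low and variable, with 77.0, 61.1, 50.9 and 18.2 in AngII and 121, 47.8, 95.2 and 119.8 in control libraries. Its log2 fold change was -0.96 ± 0.47 (SE, adjusted p = 0.29), and -0.69 ± 0.47 (SE, adjusted p = 0.394) in ovariectomized mice.

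Activation and its reversal came next. Acsl1, which attaches coenzyme A to long-chain fatty acids, had 8127, 9609, 7032 and 8687 in Ovx + AngII and 13104, 12385, 11974 and 10056 in Ovx libraries, and 5355, 8873, 9375 and 8696 in AngII and 12749.6, 10035, 11902 and 7264 in control libraries. The ovariectomized groups did not overlap, whereas control replicate 4 lay within the AngII range. Acsl1 fell with a log2 fold change of -0.44 ± 0.13 (SE, adjusted p = 0.0257) in the average, with -0.51 in Ovx + AngII against Ovx and -0.38 in AngII against control mice, but not without control replicate 1 or 3, Ovx replicate 1 or Ovx + AngII replicate 3.

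The thioesterases Acot1, in the cytosol, and Acot2, in the mitochondrial matrix, split fatty acyl-CoA back to the free acid and are PPAR targets. Acot1 (chromosome 12, 84009490 to 84018371, mm10) had 62.9, 27.9, 30.5 and 52.7 in Ovx + AngII and 141, 117, 156 and 98.6 in Ovx libraries. Every Ovx + AngII library was below every Ovx library, and the log2 fold change was -1.60 ± 0.31 (SE, adjusted p = 0.00518), past the threshold under all 27 alternatives. In mice with ovaries, Acot1 had 36.5, 33.5, 57.3 and 75.8 with AngII and 113, 126, 84.1 and 61.6 in controls, overlapping at AngII replicate 4 and control replicate 4, with a log2 fold change of -0.93 ± 0.31 (SE, adjusted p = 0.116). The difference between the responses was -0.66 ± 0.44 (SE), with an interval of -1.60 to 0.28 and an adjusted p of 0.873. Acot2 (chromosome 12, 83987861 to 83993873) had 448, 502, 366 and 473 in Ovx + AngII and 879, 757, 712 and 552 in Ovx libraries, again without overlap, and fell with a log2 fold change of -0.68 ± 0.16 (SE, adjusted p = 0.0132). Without Ovx + AngII replicate 3 its adjusted p was 0.0536. In AngII against control mice its log2 fold change was -0.42 ± 0.16 (SE, adjusted p = 0.161). In the average both genes fell, Acot1 with -1.27 ± 0.22 (SE, adjusted p = 0.00113) and Acot2 with -0.55 ± 0.11 (SE, adjusted p = 0.00323). The genes are neighbours on the same strand, 15617 bases apart, and their longest open reading frames are 95.6% identical over 1236 aligned bases, so reads can be divided between them and the level of each is uncertain. Acot13, a thioesterase found with mitochondria and with no such copy in the list, averaged 2757 ± 172 in Ovx + AngII and 3149 ± 189.9 in Ovx mice, and had log2 fold changes of -0.19 there and -0.18 in AngII against control mice.

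The carnitine shuttle and malonyl-CoA, which blocks it, gave mixed results. Cpt1a (chromosome 19, 3322334 to 3385733) had 1912, 1457, 1586 and 1929 in Ovx + AngII and 2926, 2645, 3140.0 and 1883 in Ovx libraries. Ovx replicate 4 lay within the Ovx + AngII range and the other 3 Ovx libraries above it, and Cpt1a fell with a log2 fold change of -0.61 ± 0.17 (SE, adjusted p = 0.0374). The call was lost without Ovx replicate 1, 2 or 3, or Ovx + AngII replicate 1, 2 or 3, with an adjusted p of up to 0.117. In AngII against control mice Cpt1a had 1638, 1998, 1761 and 1897 with AngII and 2525, 1494, 2684 and 1984 in controls, a log2 fold change of -0.22 ± 0.17 (SE, adjusted p = 0.543). The fall in the average, -0.41 ± 0.12 (SE, adjusted p = 0.0294), was lost without any 1 of 9 libraries. Cpt1b, the more abundant form, averaged 8604 ± 629.8 in Ovx + AngII and 9783 ± 510.3 in Ovx mice, and 7489 ± 1437 in AngII and 9174 ± 1563 in control mice, and did not pass (log2 fold changes -0.19 and -0.30). Cpt2, on the inner membrane, had log2 fold changes of -0.28 and -0.22, and Crat, which handles short acyl groups, -0.16 and -0.25, in the same order; neither passed.

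Mlycd, malonyl-CoA decarboxylase, removes the inhibitor of CPT1, and Acacb, acetyl-CoA carboxylase 2, makes it. Mlycd (chromosome 8, 119394878 to 119411102) had 1098, 1117, 881 and 875 in Ovx + AngII and 1611, 1394, 1635 and 1116 in Ovx libraries, a log2 fold change of -0.53 ± 0.14 (SE, adjusted p = 0.0257) that passed but was lost without Ovx replicate 1, 2 or 3 or Ovx + AngII replicate 3 or 4. It had 737, 1019, 1028 and 936 in AngII and 1275, 1096, 1481 and 1122 in control libraries, without overlap, and a log2 fold change of -0.42 ± 0.14 (SE, adjusted p = 0.115). In the average Mlycd fell with -0.47 ± 0.10 (SE, adjusted p = 0.00393). Acacb had 4682, 4865, 4276 and 4888 in Ovx + AngII and 5488, 5278, 5507 and 5061 in Ovx libraries, and 3567, 4867, 4666 and 4658 in AngII and 5677, 5239, 6163 and 4578 in control libraries. It passed in the average alone, with -0.24 ± 0.07 (SE, adjusted p = 0.027), and not without control replicate 1 or 3, Ovx replicate 3 or Ovx + AngII replicate 3. The enzyme that makes malonyl-CoA and the one that removes it both had lower values with AngII.

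Among the acyl-CoA dehydrogenases, the medium-chain enzyme had the largest fall. Acadm (chromosome 3, 153922357 to 153944632) had 4558, 6986, 6332 and 6868 in AngII and 10742, 8755, 10337 and 6859 in control libraries. Control replicate 4 lay among the AngII libraries and the other controls lay above all of them. The log2 fold change was -0.57 ± 0.14 (SE, adjusted p = 0.0431), so that the level fell by 32.5%. The call was lost without any 1 of 12 libraries, held without control replicate 4 (-0.70, adjusted p = 0.00404), AngII replicate 2 or 4 or Ovx + AngII replicate 2, and was lost in a fit of the 8 libraries alone (adjusted p = 0.242). In ovariectomized mice Acadm had 6926, 8238, 6680.2 and 6578 with AngII and 9342, 9535, 9122 and 9099 without, without overlap, and a log2 fold change of -0.39 ± 0.14 (SE, adjusted p = 0.0932). The fall in the average was -0.48 ± 0.10 (SE, adjusted p = 0.00376).

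The long-chain dehydrogenases had smaller fold changes and did not pass. Acadl averaged 10869 ± 1829.6 in AngII and 12417 ± 1872 in control mice, and 11895 ± 887 in Ovx + AngII and 12175 ± 843 in Ovx mice, with log2 fold changes of -0.20 and -0.034. For Ovx + AngII against Ovx mice the interval was -0.30 to 0.23. Acadvl, for very long chains, averaged 6705 ± 1515 in AngII and 7969 ± 1769 in control mice (log2 fold change -0.25) and 7107 ± 1011 in Ovx + AngII and 8213 ± 484 in Ovx mice (-0.22). Acads, for short chains, averaged 1377 ± 221 in AngII and 1752 ± 182 in control mice, had log2 fold changes of -0.36 and -0.12, and passed in the average with -0.24 ± 0.076 (SE, adjusted p = 0.0387), but not without 9 of the 16 libraries, AngII replicate 1 and control replicate 3 among them. The related Acad10 and Acad11 did not pass, with -0.24 and -0.30 in the average.

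Electrons leave these dehydrogenases through the flavoprotein made of Etfa and Etfb, and reach ubiquinone through Etfdh. Etfb had 4372, 4617, 3814 and 4112 in Ovx + AngII and 5786, 5463, 5334 and 5008 in Ovx libraries, without overlap, and 3139, 4189, 4227 and 4428 in AngII and 5932, 5401, 5368 and 4004 in control libraries, of which replicate 4 lay in the AngII range. Etfb fell with a log2 fold change of -0.36 ± 0.084 (SE, adjusted p = 0.0073) in the average and Etfa with -0.30 ± 0.088 (SE, adjusted p = 0.025). The call of Etfa was lost without control replicate 3 or Ovx + AngII replicate 3 or 4. Etfdh averaged 5248 ± 1034 in AngII and 6227 ± 974 in control mice and did not pass, with -0.18 in the average and an interval of -0.40 to 0.033.

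In the later steps of the cycle, the enzymes of the matrix that handle medium and short chains fell in the average: the hydratase Echs1, with a log2 fold change of -0.41 ± 0.095 (SE, adjusted p = 0.00743), the 3-hydroxyacyl-CoA dehydrogenase Hadh, with -0.52 ± 0.11 (SE, adjusted p = 0.00331), and the thiolase Acaa2, with -0.51 ± 0.11 (SE, adjusted p = 0.00564). Hadh had 3893, 3950.2, 3440.4 and 3750.0 in Ovx + AngII and 5037, 5635, 5109 and 4953 in Ovx libraries, and 2768, 4351, 3406 and 3682 in AngII and 6219, 5217, 6249 and 3635 in control libraries. Acaa2 had 6199.6, 6386, 5593 and 6426 in Ovx + AngII and 8550.1, 9151, 8526 and 8396 in Ovx libraries, and 3934, 5846, 6018 and 6246 in AngII and 9429, 7968, 9195 and 5324 in control libraries. For both genes the ovariectomized groups did not overlap, and without control replicate 4 every AngII library lay below every control library. In AngII against control mice neither passed (adjusted p = 0.0512 for Hadh and 0.088 for Acaa2), and both did without control replicate 4 (0.00175 and 0.00377, limma).

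Echs1 had 3239, 3763, 3295 and 3120.1 in Ovx + AngII and 4420.2, 4457, 4421 and 4329 in Ovx libraries, and 2536, 2939, 3573 and 4498 in AngII and 4864, 4729.7, 4500.0 and 3686 in control libraries. Hadha and Hadhb, the subunits of the trifunctional protein for long chains, did not pass. Hadha averaged 11719 ± 1029.5 in Ovx + AngII and 13625 ± 873 in Ovx mice, and 10374 ± 1840.0 in AngII and 13371 ± 2729 in control mice, with -0.29 ± 0.10 (SE, adjusted p = 0.0611) in the average. Hadhb averaged 12016 ± 1066 in Ovx + AngII and 13942 ± 704 in Ovx mice, with -0.27 ± 0.099 (SE, adjusted p = 0.0698) in the average. The genes stand head to head, 86 bases apart.

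Of the side enzymes, Eci1 and Decr1 fell. Eci1, an isomerase for unsaturated chains, had 1339, 1480.3, 1164 and 1411 in Ovx + AngII and 1618, 1627, 1656 and 1589 in Ovx libraries, without overlap, and fell with a log2 fold change of -0.34 ± 0.096 (SE, adjusted p = 0.0224) in the average; without Ovx + AngII replicate 3 its adjusted p was 0.052. Decr1, the dienoyl-CoA reductase, fell with a log2 fold change of -0.31 ± 0.10 (SE, adjusted p = 0.0443), a call lost without any 1 of 11 libraries. Eci2 did not pass (-0.17). Of the peroxisomal enzymes, which shorten very long chains, the thiolase Acaa1a averaged 1136 ± 68.9 in AngII and 1187 ± 133 in control mice and 1195 ± 106 in Ovx + AngII and 1202 ± 48.2 in Ovx mice. Its log2 fold changes were -0.059 and -0.012, and the interval of the average was -0.16 to 0.091. Its near copy Acaa1b, 96.5% identical in its open reading frame, was below the filter. Ehhadh, the bifunctional enzyme, had -0.069 and -0.27 and did not pass.

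The steps by chain length were set against each other within each library, a ratio chosen after the values were seen and so given with no test. The mean log2 value of Acadm, Hadh, Acaa2 and Echs1 minus that of Acadl, Acadvl, Hadha and Hadhb was -1.16 to -1.04 in AngII and -0.95 to -0.78 in control libraries, and -1.17 to -1.08 in Ovx + AngII and -0.94 to -0.77 in Ovx libraries. Neither pair of groups overlapped, and control replicate 4 (-0.92) lay with the controls. Acads, also for short chains, was not among the 4 genes; its log2 fold changes, -0.36 and -0.12, lay within the ranges of the long chain genes. With Acads added to the medium and short chain genes, the ratio was -1.51 to -1.37 in AngII and -1.32 to -1.19 in control libraries, and -1.53 to -1.40 in Ovx + AngII and -1.33 to -1.19 in Ovx libraries, and neither pair overlapped. The log2 fold changes of the 4 medium and short chain genes were -0.57 to -0.42 in AngII against control mice, those of the 4 long chain genes -0.36 to -0.20; in Ovx + AngII against Ovx mice they were -0.49 to -0.39 and -0.22 to -0.034. The same 4 genes minus the peroxisomal Acaa1a and Ehhadh gave 3.14 to 3.54 in AngII and 3.61 to 4.01 in control libraries, and 3.31 to 3.55 in Ovx + AngII and 3.61 to 3.84 in Ovx libraries.

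**Figure D3:**
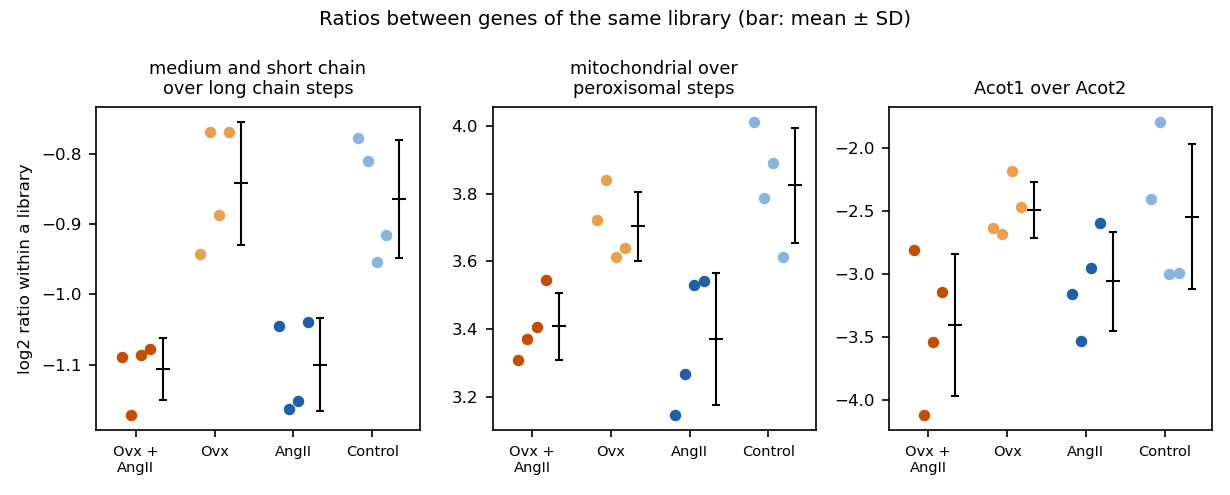
Log2 ratios between genes of 1 library, by group: medium and short chain genes over long chain genes, the same over the peroxisomal genes, and Acot1 over Acot2. Points are libraries and bars the mean ± SD (n = 4). In the first 2 panels each AngII-treated group lies wholly below its untreated group. The medium and short chain genes of these panels were set against others after the values were seen, so no test is given. In the third panel the groups with ovaries overlap.

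Ucp3 and Pdk4 mark the fuel that muscle uses. Ucp3 encodes a mitochondrial carrier of muscle, and Pdk4 a kinase that shuts off pyruvate dehydrogenase. Ucp3 (chromosome 7, 100472990 to 100486432) had 56.9, 164, 90.7 and 60.1 in AngII and 360.4, 119.6, 486 and 170.2 in control libraries, and 173, 126, 132 and 198 in Ovx + AngII and 829, 470.3, 681 and 147 in Ovx libraries. The libraries without AngII were widely spread, with control replicate 2 within the AngII range, control replicate 4 just above it and Ovx replicate 4 within the Ovx + AngII range. The log2 fold changes were -1.52 ± 0.51 (SE, adjusted p = 0.112) and -1.52 ± 0.51 (SE, adjusted p = 0.0673), and the fall in the average -1.52 ± 0.36 (SE, adjusted p = 0.00782) passed under all 26 alternatives. It was the largest fall in the average among the 35 genes. Pdk4 had 2106, 3246, 4612 and 1832 in AngII and 4183, 2300.1, 5196 and 5689.6 in control libraries, and 4475, 3762, 5045 and 3939 in Ovx + AngII and 13582, 5159.8, 8725 and 2832 in Ovx libraries. Its groups overlapped, and -0.58 ± 0.28 (SE, adjusted p = 0.172) in the average did not pass. Ucp3, Angptl4, Pdk4 and Acot1 had the largest spread within groups of the 35 genes, with pooled SDs of 0.82, 0.76, 0.65 and 0.48 (log2).

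**Figure D4:**
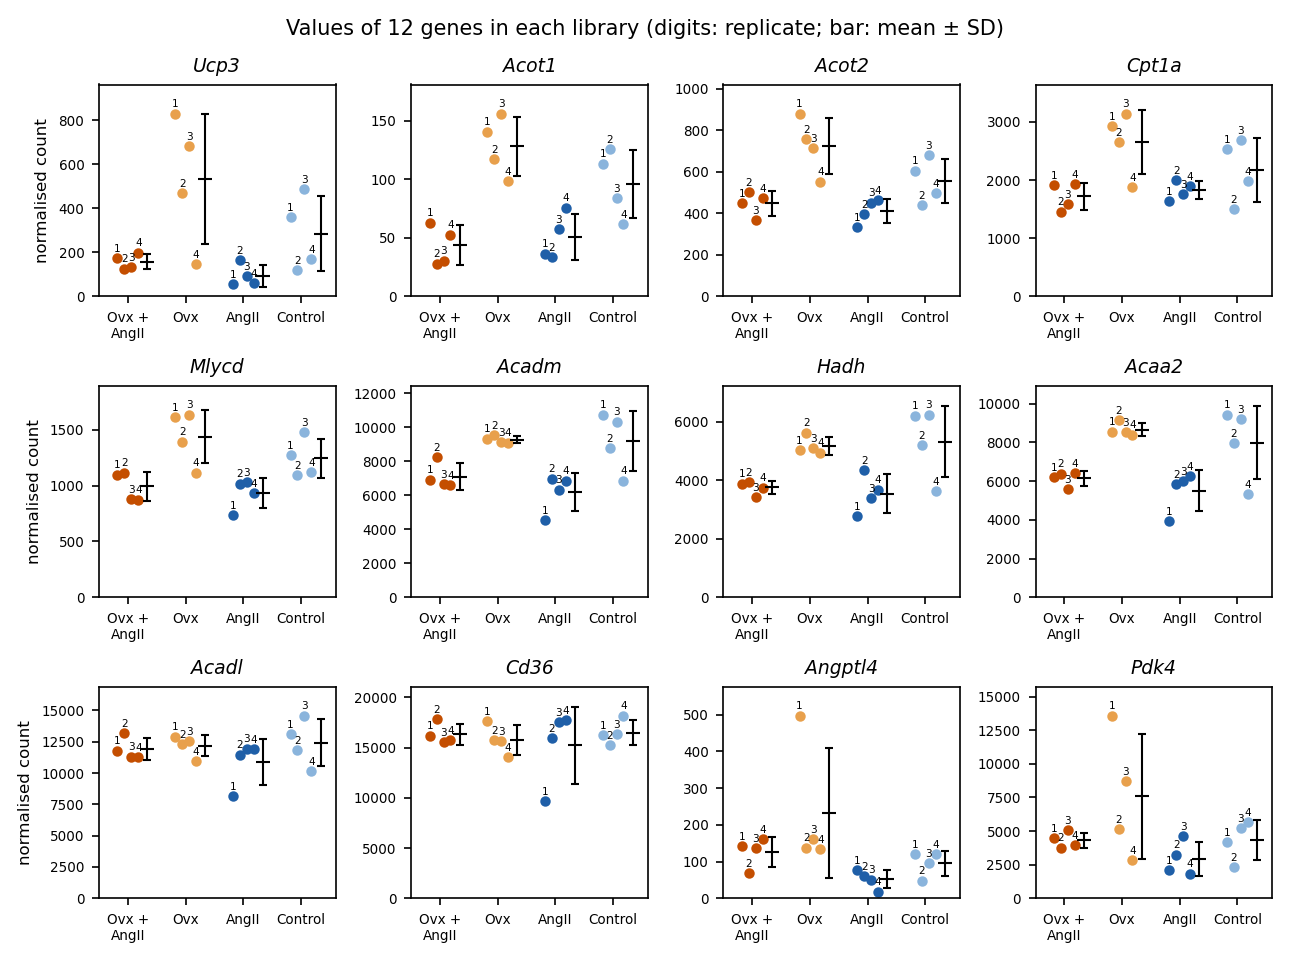
Normalised counts of 12 genes in each library, with the replicate number beside each point and the mean ± SD beside each group (n = 4); every axis starts at 0. Ucp3, Acot1, Acot2, Cpt1a, Mlycd, Acadm, Hadh and Acaa2 have lower means in each AngII-treated group than in its untreated group. Libraries overlap for several of them, such as Cpt1a in mice with ovaries. Acadl and Cd36 differ little, and Angptl4 and Pdk4 vary most in Ovx libraries.

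Sequence before annotated starts of genes that fell is shown because PPARs and oestrogen-related receptors bind elements built on the half-site AGGTCA. RefSeq windows of 250 bases before to 50 after the start (GRCm38.p6) were searched on both strands. There were 29 such windows, for 28 of the 35 genes. AGGTCA stood in 7 of the 29 windows (Acacb, Acadm, Acadvl, Cd36, Cpt1a, Echs1 and Ucp3) and in 16.3% of all 32851 windows. TCAAGGTCA, the extended oestrogen-related receptor element, stood in 0 of the 29 and in 0.423% of all. A DR1 is AGGTCANAGGTCA with at most 2 of its 12 fixed bases off. It stood in 4 of the 29 (Cd36, Echs1, Etfa and Ucp3) and in 3.86% of all, and can overlap the half-site. Cd36, which did not pass, has both in its window. Windows of Ucp3, Cpt1a and Acadm, which fell and hold a match, and of Acot1, which fell most in Ovx + AngII mice and holds none, are printed from 250 bases before the start to the start, 5′ to 3′ on the strand of the gene, with matches in capitals (TGACCT is AGGTCA on the other strand).
Ucp3, chr7:100472741-100472990, plus strand: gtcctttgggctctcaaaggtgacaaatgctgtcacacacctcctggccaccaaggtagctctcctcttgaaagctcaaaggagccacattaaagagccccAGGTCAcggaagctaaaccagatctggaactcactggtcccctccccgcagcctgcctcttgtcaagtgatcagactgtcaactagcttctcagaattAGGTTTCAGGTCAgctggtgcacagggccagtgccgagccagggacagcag
Cpt1a, chr19:3323051-3323300, plus strand: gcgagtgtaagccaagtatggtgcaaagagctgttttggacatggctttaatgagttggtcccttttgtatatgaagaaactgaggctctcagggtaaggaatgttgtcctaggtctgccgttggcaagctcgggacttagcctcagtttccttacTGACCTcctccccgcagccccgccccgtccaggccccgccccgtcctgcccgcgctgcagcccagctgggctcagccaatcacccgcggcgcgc
Acadm, chr3:153944644-153944893, minus strand: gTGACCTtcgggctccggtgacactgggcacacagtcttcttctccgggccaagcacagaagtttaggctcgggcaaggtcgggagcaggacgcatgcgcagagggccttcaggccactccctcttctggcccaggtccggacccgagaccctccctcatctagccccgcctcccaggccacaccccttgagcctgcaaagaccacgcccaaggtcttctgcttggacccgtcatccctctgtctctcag
Acot1, chr12:84009252-84009501, plus strand: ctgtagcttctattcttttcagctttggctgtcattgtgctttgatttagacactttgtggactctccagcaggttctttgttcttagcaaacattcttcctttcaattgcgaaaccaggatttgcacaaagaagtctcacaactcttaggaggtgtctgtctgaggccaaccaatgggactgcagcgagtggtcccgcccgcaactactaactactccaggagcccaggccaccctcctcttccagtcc
Counted from the start, the half-sites of Ucp3 begin at -149 and -44, the second within the DR1, that of Cpt1a at -94 and that of Acadm at -249, both on the other strand. The RefSeq starts of Cpt1a and Acot1 lie downstream of the outermost starts in the gene spans given above, so the Cpt1a window lies inside its gene span. A match is a description of the letters and does not show that a receptor binds. Over 300 bases, the windows of Acot1 and Acot2 matched at 24.7% of positions when laid side by side without gaps.

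The next comparisons asked what ovariectomy did, without and with AngII. Ovx against control mice shares its control libraries with AngII against control mice. No member passed in it (0% of all genes, limma), with 2 of 35 and 1234 of all genes at an unadjusted p under 0.05. None passed in Ovx + AngII against AngII mice (0%), with 1 of 35 and 878 of all at that level, nor in the average of both (0%), with 4 of 35 and 1322 of all. The median of the 35 genes was 0.037 in Ovx against control mice and 0.096 in Ovx + AngII against AngII mice. Angptl4 had the largest difference, with 497, 138, 161 and 133 in Ovx and 121, 47.8, 95.2 and 119.8 in control libraries, without overlap, and 141, 68.7, 136 and 161 in Ovx + AngII and 77.0, 61.1, 50.9 and 18.2 in AngII libraries, where 1 Ovx + AngII library lay in the AngII range. Its log2 fold changes were 1.11 ± 0.47 (SE, adjusted p = 0.563) and 1.38 ± 0.47 (SE, adjusted p = 0.704), and 1.24 ± 0.33 (SE, adjusted p = 0.392) in the average. Ovx replicate 1, with the highest value, also had the highest sum of 9 white adipocyte markers, 4458, among them Adipoq with 584. The sums were 1355 to 1636 in the other Ovx libraries and 1050.1 to 1643 in controls. All 8 of these markers that were tested had log2 fold changes above 0 in Ovx against control mice. They were 0.38 to 2.72 with a median of 1.38, and none passed. In Ovx + AngII against AngII mice the median of the 8 was 0.11, and 3 were below 0. The part of adipose tissue in the result was not tested. For Angptl4, the Ovx libraries still lay above every control library without Ovx replicate 1.

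Ehhadh was the other gene whose Ovx and control libraries did not overlap, with 194, 194, 224 and 225 in Ovx and 162, 189, 182 and 145 in control libraries and a log2 fold change of 0.31 ± 0.15 (SE, adjusted p = 0.565). Of all genes, 4.46% did not overlap in Ovx against control mice, and 4.53% in Ovx + AngII against AngII mice, where no member did. Acot2 averaged 725 ± 135 in Ovx and 555 ± 108 in control mice, with 0.39 ± 0.16 (SE, adjusted p = 0.563). Pdk4 and Ucp3 had positive differences of 0.64 and 0.86 in the average (limma, adjusted p = 0.528 and 0.52). In Ovx against control mice they were 0.65 and 0.86, with the highest values in Ovx replicates 1 and 3. In Ovx + AngII against AngII mice, which hold neither library, they were 0.63 and 0.86. For the enzymes of the cycle the differences were small: Acadm had 0.037 with an interval of -0.26 to 0.34, Hadh -0.0093 with -0.33 to 0.31 and Hadha 0.049 with -0.26 to 0.36 in Ovx against control mice. They rested in part on control replicate 4. With it, the control means were 9173 for Acadm, 5330 for Hadh and 13371 for Hadha, and without it 9945, 5895 and 14547. The Ovx means, 9274, 5184 and 13625, were below all of the latter. On the values as deposited, which carry the scale shift, the median of all genes in Ovx against control mice was -0.17 and that of the 35 was -0.13.

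The responses to AngII were then compared between ovariectomized mice and mice with ovaries. No member passed (0% of all genes, limma), and 0 of 35 and 826 of all genes were at an unadjusted p under 0.05. Acot1 had the largest difference in size, given above, followed by Cpt1a with -0.39 ± 0.25 (SE, adjusted p = 0.873) and an interval of -0.91 to 0.14. For Acadm the difference was 0.18 ± 0.20 and for Ucp3 the interval was -1.52 to 1.51, so responses that differ by less than these widths could not be told apart at 4 libraries a group.

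**Figure D5:**
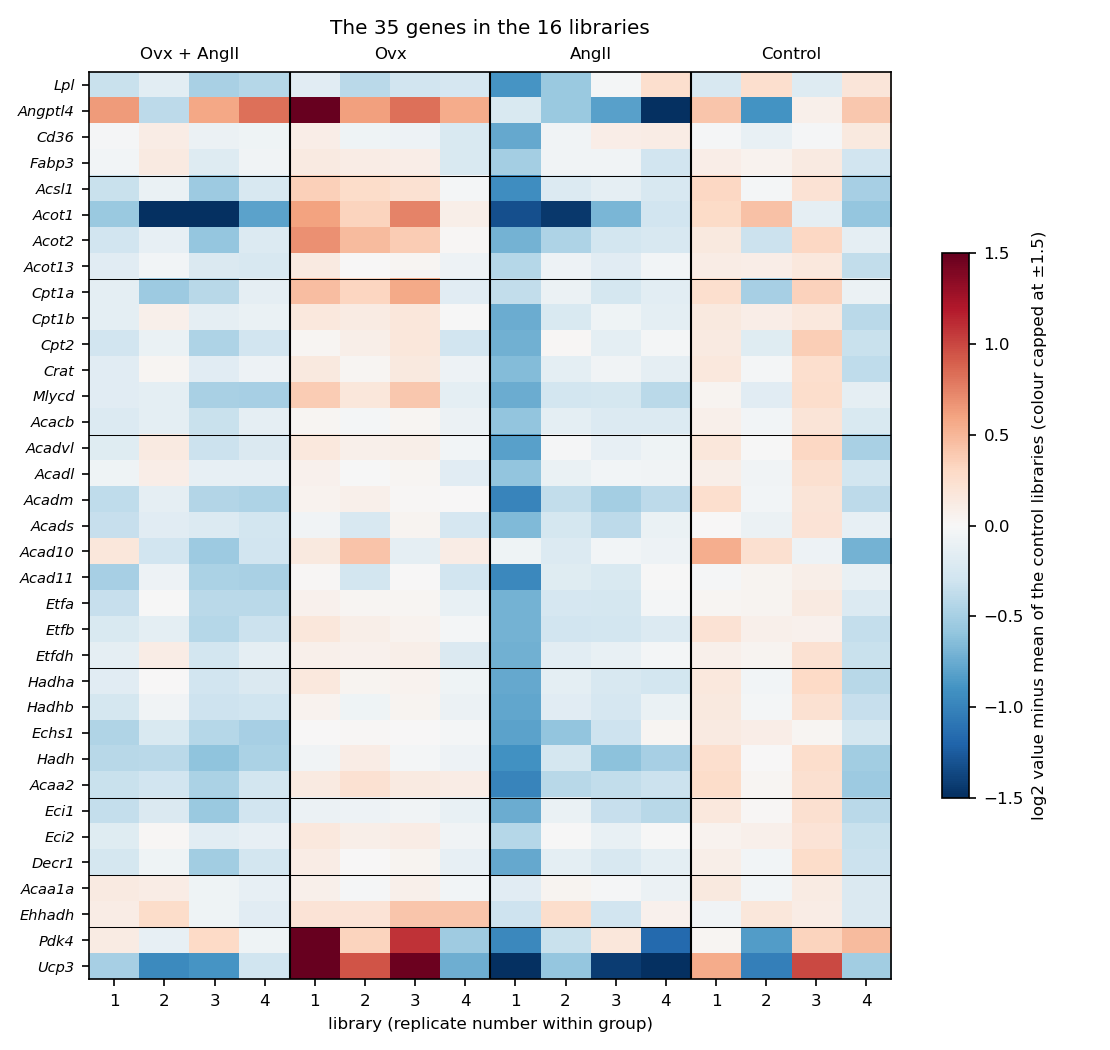
Log2 values of the 35 genes in each library minus the mean of the 4 control libraries, with the colour capped at ±1.5; rows follow the steps of the path and columns the groups. Blue (lower) prevails in the Ovx + AngII and AngII libraries, darkest in AngII replicate 1, and in control replicate 4; Ucp3, Pdk4 and Angptl4 are red in Ovx replicate 1.

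Other genes of the same and related pathways were listed, 94 in 7 lists, of which 89 were tested. They gave 4 falls and no rise in AngII against control mice, and 12 falls and 1 rise in Ovx + AngII against Ovx mice. In the average they gave 28 falls and 1 rise. Their median in the average was -0.15. Of 18 further mitochondrial oxidation genes, 13 fell in the average and none rose, with a list median of -0.26. Ivd, isovaleryl-CoA dehydrogenase of leucine breakdown, fell with a log2 fold change of -0.56 ± 0.11 (SE, adjusted p = 0.003), Ech1, a dienoyl-CoA isomerase, with -0.58 ± 0.12 (SE, adjusted p = 0.00315) and Acat1, the acetoacetyl-CoA thiolase, with -0.42 ± 0.093 (SE, adjusted p = 0.00568). Several of the 13, Ivd among them, serve amino acids in place of fatty acids or beside them, so the count is not one of fatty acid oxidation genes alone. Of 12 further peroxisomal genes tested, 2 fell in the average, Phyh (-0.27) and Pecr (-0.29), with a list median of -0.096, and 1 fell in Ovx + AngII against Ovx mice, Abcd2 (-0.87).

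Of 16 further uptake, activation and transport genes, 3 fell in the average. Vldlr, the very-low-density lipoprotein receptor, averaged 4366 ± 536 in AngII and 7114 ± 1137 in control mice, and 5672 ± 767 in Ovx + AngII and 7618 ± 592 in Ovx mice, and passed in both comparisons, with -0.70 ± 0.12 (SE, adjusted p = 0.00839) and -0.43 ± 0.12 (SE, adjusted p = 0.0298). The synthetase Acsl6 fell with a log2 fold change of -0.78 ± 0.18 (SE, adjusted p = 0.00793) and the transport protein Slc27a1 with -0.40 ± 0.10 (SE, adjusted p = 0.0138). Of 6 further thioesterases tested, Acot7 fell (-0.48) and Acot9 rose (0.38) in the average. Of 10 lipid droplet genes, the coat protein Plin5 fell with a log2 fold change of -0.86 ± 0.21 (SE, adjusted p = 0.0112) and the triglyceride-making Dgat2 with -0.68 ± 0.18 (SE, adjusted p = 0.0162).

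Of 19 regulators, 4 fell in the average. Rxrg, a retinoid X receptor that pairs with PPARs, averaged 435 ± 104 in AngII and 735 ± 35.9 in control mice and 472 ± 59.2 in Ovx + AngII and 701 ± 31.1 in Ovx mice, and passed in both comparisons, with -0.79 ± 0.14 (SE, adjusted p = 0.00998) and -0.58 ± 0.14 (SE, adjusted p = 0.0171). Esrra, the oestrogen-related receptor α, fell with a log2 fold change of -0.39 ± 0.086 (SE, adjusted p = 0.00572), Rxra with -0.18 ± 0.041 (SE, adjusted p = 0.00615) and Lpin1 with -0.36. Nrip1, a corepressor, fell in Ovx + AngII against Ovx mice (-0.36). Ppara and the coactivator Ppargc1a, named outside the rule for their role, did not pass in the average, with -0.24 ± 0.10 (SE, adjusted p = 0.115) and -0.053 ± 0.061 (SE, adjusted p = 0.615). Among 10 atrial cardiomyocyte markers, Tnni3 and Atp2a2 fell and Nppa and Actc1 rose in the average, with a list median of -0.14 where the 35 genes had -0.29.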

How the data were processed

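The authors aligned the reads to mm10 with STAR, quantified them with Salmon and normalised them in the DESeq2 app of BaseSpace; tool versions are not given in the sources used here. The deposited values are a signal, counts divided by size factors and not whole, so no count model was fitted and read depth is unknown. Of 24972 gene rows, 5995 were at 0 in all libraries, and 14 rows with date-like names (0.0721% of values) were dropped. Values were rescaled by the median of ratios and tested as log2(value + 1) with limma 3.58.1 in R 4.3.3 on all 16 libraries with 4 group means, a mean value of at least 10 and Benjamini-Hochberg adjustment over 14251 genes. The pseudocount understates changes of low genes. Intervals are 95%, from the moderated t distribution. The script was tested on simulated data. All 35 genes were accounted for; those that passed, and 20 key genes whatever their result, were described, with up to 3 per further list. Members and lists were chosen with earlier results of these data known. The genes of 1 further list are not reported here singly.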

Additional observations from a re-analysis of the deposited data

Results flagged for a closer look

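Of 140 groups of 4 libraries (35 genes in 4 groups), 12 held a library far from the other 3 by Dixon's criterion, which chance meets in about 1 of 20 groups. AngII replicate 1 was low for Acsl1 (5355, against 8696 to 9375 in the others), Acacb (3567, against 4658 to 4867), Acadvl (4456, against 7179 to 7705) and Acadl (8144, against 11470 to 11960). Control replicate 4 was low for Acot13 (2393, against 3324 to 3458) and Cpt1b (6842, against 9720 to 10100). Ovx + AngII replicate 2 was high for Acad11 (3262, against 2428 to 2466), Etfa (6081, against 4603 to 4817) and Hadhb (13600, against 11370 to 11680). Ovx replicate 4 was low for Fabp3 (17690, against 22230 to 22800) and Etfdh (5308, against 6446 to 6578), and Ovx replicate 1 was high for Angptl4 (497, against 133.5 to 160.7).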

How the results depend on the processing

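No paired analysis was possible because the labels give no numbers that pair libraries across groups. For single genes, 3046 of the values under alternatives kept direction and side of the threshold, 124 newly passed, 68 no longer passed and 14 changed sign. The cause was not tested. For the comparisons of ovariectomy, these values cover only Angptl4, Pdk4, Ucp3, Acot1 and Acot2, so sign changes of other genes there are not counted. Percentages in brackets are the share of all genes that passed and were lower. The number of the 35 genes that passed in AngII against control mice was 1 (1.25%), and 0 to 14 on leaving out 1 library (0.259% to 5.06%). It was 3 with library totals set equal (1.77%), 0 with no filter (0.68%), 2 with a mean of at least 50 (1.57%) and 6 with array weights (3.35%). In a fit of the 2 groups alone it was 0 (0.00702%). Without control 4 and AngII 4, chosen for their haemoglobin in earlier results, it was 17 (6.61%). For Ovx + AngII against Ovx mice it was 4 (4.28%), and 1 to 10 on leaving out 1 library. It was 11 with totals set equal (6.70%), 13 with array weights (9.23%), 15 in the 2 groups alone (share given above) and 10 without control 4 and AngII 4 (6.62%). For the average it was 16 (8.5%), 9 to 24 on leaving out 1 library, and 26 without control 4 and AngII 4. For Ovx averaged over both AngII states it was 0, and 1 as deposited. The medians of the 35 genes moved under none of these by more than the spread between libraries, although that of AngII against control mice was -0.18 without AngII 1. That spread, 0.19, is an SD between single libraries and not the error of a difference of groups. It is a wide limit beside medians of -0.32 and -0.27, so the check could miss large shifts. Sign changed for Cd36 in AngII against control mice (0.0513 without AngII 1, -0.2413 to 0.0513 on leaving out 1 library), in Ovx + AngII against Ovx mice (-0.00037 with totals set equal, -0.0025 without Ovx 4, up to 0.1084 on leaving out 1) and in the average (0.0176 with array weights, 0.0518 without AngII 1, down to -0.09451); for Acad10 in AngII against control mice (0.0839 without control 1, down to -0.3326); for Ehhadh there (0.0125 without AngII 1, 0.0051 without AngII 3, down to -0.1804); for Acaa1a in Ovx + AngII against Ovx mice (0.0053, 0.0043, 0.014 and 0.035 without Ovx 1, Ovx 3, Ovx + AngII 3 and Ovx + AngII 4, down to -0.05307); and as deposited for Acot2 in Ovx + AngII against AngII mice (-0.047) and Acot1 in Ovx averaged (-0.056). With 4 libraries a group and unknown read depth, small differences were not detectable, and genes with near copies (Acot1, Acot2, Acaa1a) have uncertain levels.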
